A study of Mus musculus with 2 samples.

Results

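The genes described here are 7 of the 31053 genes listed in both deposited matrices: the growth arrest-specific ligand Gas6, protein S (Pros1), the receptors Axl, Mertk and Tyro3, the bridging protein Mfge8 and the phosphatidylserine receptor Timd4. They were taken by symbol from a named list, and all 7 were found in both libraries. Gas6 and Pros1 are secreted proteins that bind phosphatidylserine, a lipid that dying cells expose on their surface. Between them they also bind the TAM receptor tyrosine kinases Tyro3, Axl and Mertk, with Axl bound through Gas6. In this way a phagocyte can recognise and engulf a dying cell, a process called efferocytosis, and TAM signalling is also known as a brake on inflammatory responses of macrophages and dendritic cells. Mfge8 links phosphatidylserine to integrins, and Timd4 (Tim-4) binds the lipid directly and is a known marker of some resident macrophages.

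The cells came from tumours of the mouse melanoma line B16-F10, placed under the skin of female wild-type C57BL/6 mice at 10 weeks of age. After enzymatic digestion and a Ficoll step, CD45+ cells that excluded the viability dye DAPI were sorted and put through 10x Chromium 3′ v3 single-cell RNA sequencing. The labels call one group control, without saying what it received, and the other received an agonist of OX40, a costimulatory receptor of T cells. Each group is 1 library. The sources used here do not give the number of mice behind a library, the dose or the day of sampling. The question that the design poses is how tumour leukocytes differ after OX40 agonism. With 1 library on each side no comparison below has a replicate check, and no p-value is given. Each level is the sum of UMIs (unique molecular identifiers, 1 per captured RNA molecule) of a gene over the cells of a gate, divided by all UMIs of that gate and given as CPM (counts per 1000000). Parentheses after a level or a ratio hold its 95% counting interval. This interval covers counting error in these 2 libraries and neither animals nor library preparation. It treats each UMI as independent and so also leaves out the spread between cells.

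The control library held 114026695 UMIs in 7187 barcodes and the treated library 118059108 UMIs in 8569 barcodes, of which 6031 and 7050 cells were kept, and 18 barcode sequences occurred in both. Cells were placed in gates by summed marker genes, none of which is among the 7 genes. The gates gave 2167 control and 2642 treated mononuclear phagocytes (monocytes and macrophages), 452 and 764 dendritic cells, 1956 and 1814 T cells, and 455 and 616 melanoma cells that had passed the CD45 sort. All 15 phagocyte markers had UMIs in the phagocyte gate of each library. The phagocyte gate summed 13 of them, leaving out Ly6c2 and Plac8. Dendritic, T, natural killer and melanoma cells had to lie below the threshold of that sum. Melanoma markers were capped likewise in the other gates. Low levels of these markers in another gate are thus partly set by the gate, while the 7 genes were not capped. Gates are ranges on a continuum and not discrete types. Of all kept cells, 538 control and 753 treated ones had a marker sum within 1.5-fold of the phagocyte threshold. They lay on either side of it, so not all of them are gated phagocytes. Median depth was lower in the treated library for phagocytes (9292 against 7899.5 UMIs per cell) and T cells (10544.5 against 7544.5), while melanoma cells held 70793 and 65501. Droplets with markers of more than one lineage, 163 and 136, were kept out of the gates, and 12.02% and 11.5% of kept cells had no gate.

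The 250 bases before the start of Gas6, Pros1, Axl, Mertk and Timd4 are shown because these 5 genes carry the differences between phagocyte and dendritic cell gates described below, and because the Timd4 window lacks the GC boxes that the other 4 hold. They are from the RefSeq table of build GRCm38.p6, written 5′ to 3′ on the gene's own strand, for Gas6 at chr8:13494536-13494785 (minus strand), Pros1 at chr16:62854057-62854306 (plus), Axl at chr7:25788734-25788983 (minus), Mertk at chr2:128698665-128698914 (plus) and Timd4 at chr11:46810549-46810798 (plus). Capitals mark GC boxes in the first 4 (GGGCGG, or CCGCCC where it lies on the other strand), 1 STAT element in Pros1 (TTCNNNGAA), and in Timd4 an M-box core (CATGTG, here on the other strand as CACATG) and MAF half-sites (TGCTGA, here on the other strand as TCAGCA).
Gas6: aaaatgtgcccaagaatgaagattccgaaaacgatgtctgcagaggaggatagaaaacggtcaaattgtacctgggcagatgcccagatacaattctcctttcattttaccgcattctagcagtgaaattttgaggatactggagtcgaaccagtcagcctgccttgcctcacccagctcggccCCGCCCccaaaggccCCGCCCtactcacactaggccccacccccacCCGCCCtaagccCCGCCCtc
Pros1: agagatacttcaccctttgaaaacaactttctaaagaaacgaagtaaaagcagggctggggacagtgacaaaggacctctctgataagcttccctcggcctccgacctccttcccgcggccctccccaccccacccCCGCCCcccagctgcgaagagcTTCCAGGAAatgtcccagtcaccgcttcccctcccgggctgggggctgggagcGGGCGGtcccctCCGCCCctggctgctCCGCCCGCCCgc
Axl: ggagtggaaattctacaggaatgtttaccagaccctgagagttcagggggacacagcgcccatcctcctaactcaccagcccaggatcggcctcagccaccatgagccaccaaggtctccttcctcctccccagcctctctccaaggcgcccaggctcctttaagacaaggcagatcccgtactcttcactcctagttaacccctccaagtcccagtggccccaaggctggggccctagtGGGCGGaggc
Mertk: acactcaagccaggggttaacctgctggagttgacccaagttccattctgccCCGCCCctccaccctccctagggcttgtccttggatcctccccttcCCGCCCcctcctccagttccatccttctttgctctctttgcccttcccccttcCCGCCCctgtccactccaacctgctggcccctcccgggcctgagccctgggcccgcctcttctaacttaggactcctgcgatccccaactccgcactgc
Timd4: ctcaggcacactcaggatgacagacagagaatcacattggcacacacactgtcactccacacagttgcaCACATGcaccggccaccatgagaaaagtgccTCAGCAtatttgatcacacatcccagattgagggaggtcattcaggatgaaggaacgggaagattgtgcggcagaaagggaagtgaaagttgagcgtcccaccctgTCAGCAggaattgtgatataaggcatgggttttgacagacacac

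A GC box lay in 32.9% of the 27025 promoter windows searched. Gas6 held 4, Pros1 5, Axl 1 and Mertk 3 of them, and the windows of Tyro3 and Mfge8, not printed, held 3 and 4. Timd4 held none, and its window had the lowest share of G and C of the 7, against 54.8% in Gas6, 63.6% in Mertk and 64.4% in Pros1. CATGTG occurred in 12.2% of all windows, TGCTGA in 15.8% and TTCNNNGAA in 7.18%. The E-box CACGTG (6.05% of windows), the DR4 element of liver X receptors (0.0111%) and TATAAA (12.97%) were searched on both strands and matched in none of the 7 windows. Such matches describe letters in a window and not binding. The bases after the RefSeq start were found in GENCODE transcripts for Pros1, Tyro3, Mfge8 and Timd4. For Gas6, Axl and Mertk the RefSeq start lies upstream of the GENCODE start, so these windows were not matched to a transcript and their strand is that of the annotation. In the Tyro3 window 128 bases lie in a Tyro3 exon.

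Gas6 differed more between the libraries in phagocytes than Pros1, Axl or Mertk. It has the ID ENSMUSG00000031451 and lies on the minus strand of chromosome 8 at 13465374 to 13494490 (GRCm38, GENCODE M21), where Tmem255b overlaps it on the other strand. In control phagocytes 820 Gas6 UMIs gave 29.5 CPM (27.5–31.6), and in treated phagocytes 2541 UMIs gave 91.0 CPM (87.5–94.6), a ratio of 3.09 (2.85–3.34). Gas6, Pros1, Axl and Mertk were measured in phagocytes (at least 10 CPM and 30 UMIs in either library). Of these 4, Gas6 alone was at least 1.5-fold higher after adding 10 CPM to both levels, and none was that much lower. Among all 7014 genes measured there, 0.656% were at least 1.5-fold higher and 0.813% at least 1.5-fold lower. The share of phagocytes with a Gas6 UMI was 10.5% in control and 19.6% in treated cells, and 1.12% and 4.01% after each cell was thinned to 1000 UMIs. Gas6 was near its floor in the other 3 classes: dendritic cells held 1 and 7 UMIs, T cells 14 and 18 (0.53 and 0.96 CPM), and melanoma cells 9 and 37 (0.29 and 0.93 CPM). Neutrophils, 44 and 128 cells, held 0 and 10 Gas6 UMIs, in treated cells 36.0% of the phagocyte level. The phagocyte markers, which the neutrophil gate did not cap, stood there at a median of 43.0% of theirs. Their part in the Gas6 level was not tested.

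Most Gas6 UMIs came from C1q-high macrophages with at least 2 UMIs of Fcrls, Folr2, Cbr2, Lyve1 and Cd163, genes known from tissue-resident macrophages. This Fcrls/Folr2 gate held 219 control and 573 treated cells, which is 10.1% and 21.7% of phagocytes, and it supplied 54.2% of all Gas6 UMIs among control cells and 77.5% among treated ones. Within it Gas6 stood at 134 CPM (124–146) in control and 241 CPM (231–251) in treated cells, a ratio of 1.79 (1.63–1.97). No single cell carried the sum, since the highest cell held 43 of 566 control UMIs and 33 of 2231 treated UMIs. In the C1q macrophage gate, cells high in complement C1q genes but below the threshold for the former markers, Gas6 stood at 18.2 CPM (16.0–20.6) and 23.8 CPM (20.9–26.9), a ratio of 1.31 (1.09–1.56). Both macrophage gates were thus higher in the treated library, and the Fcrls/Folr2 gate lay above the C1q gate in each library.

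The 3 remaining phagocyte subgates, with little Gas6 in the control library, held more in the treated one. Arg1 macrophages, gated on Arg1, Spp1, Hmox1, Vegfa and Fn1, had 0 UMIs in control and 26 UMIs (10.3 CPM, 6.73–15.1) in treated cells. The treated point level was 9.92-fold the 1.04 CPM that a control count of 0 allows at 3 UMIs. This fold leaves out the treated interval and is not a lower bound. Phagocytes outside the named subgates had 3 and 21 UMIs, a ratio of 10.4 (3.11–54.6), with 9 of the treated UMIs in 1 cell. Classical monocytes had 1 and 8 UMIs, 6 of the 8 in 1 cell. The summed markers of the Fcrls/Folr2 gate were also higher in these subgates: 36.7 and 99.5 CPM in Arg1 macrophages, 12.3 and 69.1 CPM in phagocytes outside the named subgates and 4.51 and 24.3 CPM in classical monocytes. Their part in the Gas6 difference was not tested. Natural killer cells held 2 and 0 Gas6 UMIs, and type 2 dendritic cells 0 in both libraries.

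The makeup of the phagocyte gate and the level within subgates both moved with the class total. When the treated subgate levels were weighted by the control mix of UMIs, Gas6 stood at 50.7 CPM, a ratio of 1.72 to control. At the treated mix the ratio was 1.76. Within the Fcrls/Folr2 gate the treated cells also held more of the gate markers, which summed to 485 CPM in control and 770 CPM in treated cells, and Fcrls itself stood at 145 and 358 CPM. Splitting the gate by marker UMIs per cell, a split chosen after the data were seen, gave Gas6 ratios of 2.51 (1.44–4.69) in cells with 2 to 4 marker UMIs, 1.85 (1.49–2.31) with 5 to 9 and 1.501 (1.35–1.67) with 10 or more. Gas6 was higher in the treated library in each of these strata, and within a library it was higher in strata with more marker UMIs: 28.1, 70.7 and 215 CPM in control and 70.7, 131 and 323 CPM in treated cells. The strata did not hold the marker level equal: the summed markers stood at 352 and 322 CPM, 344 and 451 CPM, and 636 and 999 CPM. Cells with 10 or more marker UMIs made up 32.9% of the gate in control and 49.0% in treated cells. Depth per cell enters this split, and the parts of depth and of the marker level in the result were not tested.

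**Figure D1:**
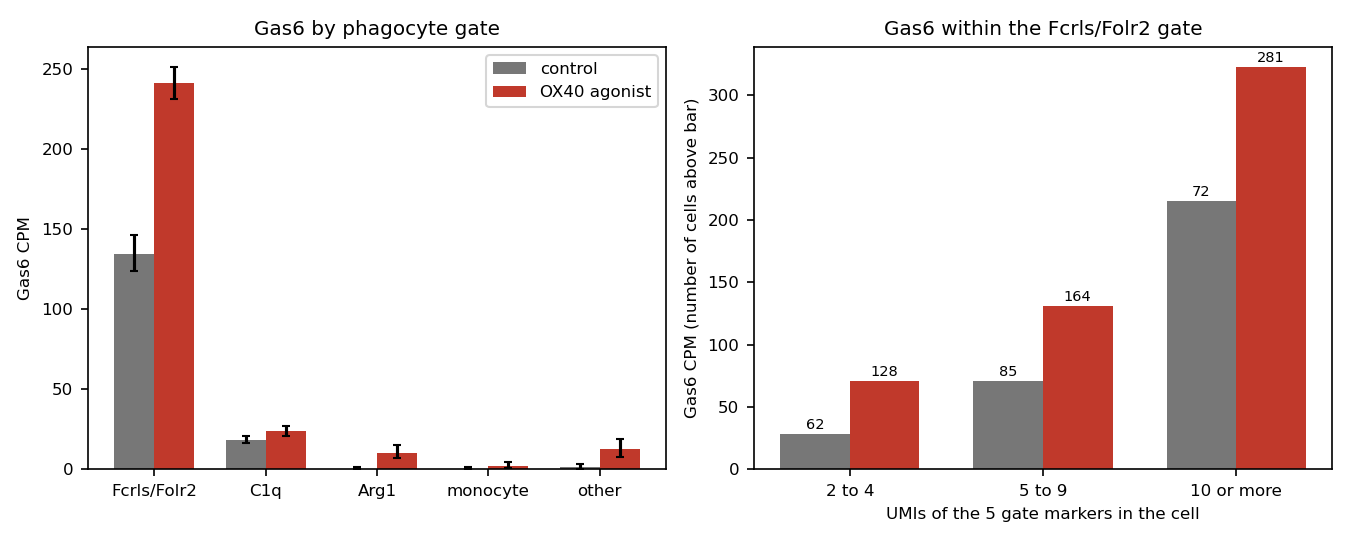
Gas6 level (CPM, with 95% Poisson intervals) by phagocyte subgate on the left, and within the Fcrls/Folr2 gate by the number of marker UMIs in the cell on the right, for the control and OX40 agonist libraries. The Fcrls/Folr2 gate stands at 134 and 241 CPM, and the treated library is higher in each of the 3 marker strata.

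Pros1, protein S, is best known as a plasma cofactor of anticoagulation and is the other TAM ligand. It lies on the plus strand of chromosome 16 at 62854307 to 62929346 (ENSMUSG00000022912). In phagocytes 264 control and 337 treated UMIs gave 9.50 CPM (8.38–10.7) and 12.1 CPM (10.8–13.4), a ratio of 1.27 (1.08–1.499). It was spread over the subgates rather than held by one: the Fcrls/Folr2 gate stood at 14.7 and 14.1 CPM, C1q macrophages at 8.36 and 10.9, and classical monocytes at 11.7 and 17.0. The intervals of these 3 ratios all reached or crossed 1 (the monocyte ratio was 1.45, 0.989–2.14). Arg1 macrophages were the lowest at 4.85 and 3.96 CPM. Type 2 conventional dendritic cells, which present antigen to CD4 T cells, held Pros1 at 15.8 and 20.5 CPM (ratio 1.30, 0.725–2.36), while mature dendritic cells held 0 and 3 UMIs.

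Melanoma cells held more Pros1 UMIs than phagocytes in both libraries. They supplied 329 control and 491 treated UMIs, 47.3% and 52.5% of all Pros1 UMIs, against 38.0% and 36.0% from phagocytes. Their level was 10.5 CPM (9.40–11.7) and 12.3 CPM (11.2–13.4), a ratio of 1.17 (1.01–1.35), and 43.1% and 49.5% of melanoma cells had at least 1 UMI. After thinning to 1000 UMIs these shares were 1.41% and 1.16%, in the reverse order, so no order is read from them. T cells stood at 0.68 and 1.07 CPM. The melanoma level equalled 111% and 102% of the phagocyte level. The 13 phagocyte markers, which the melanoma gate caps, stood there at a median of 0.772% and 0.503% of theirs.

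**Figure D2:**
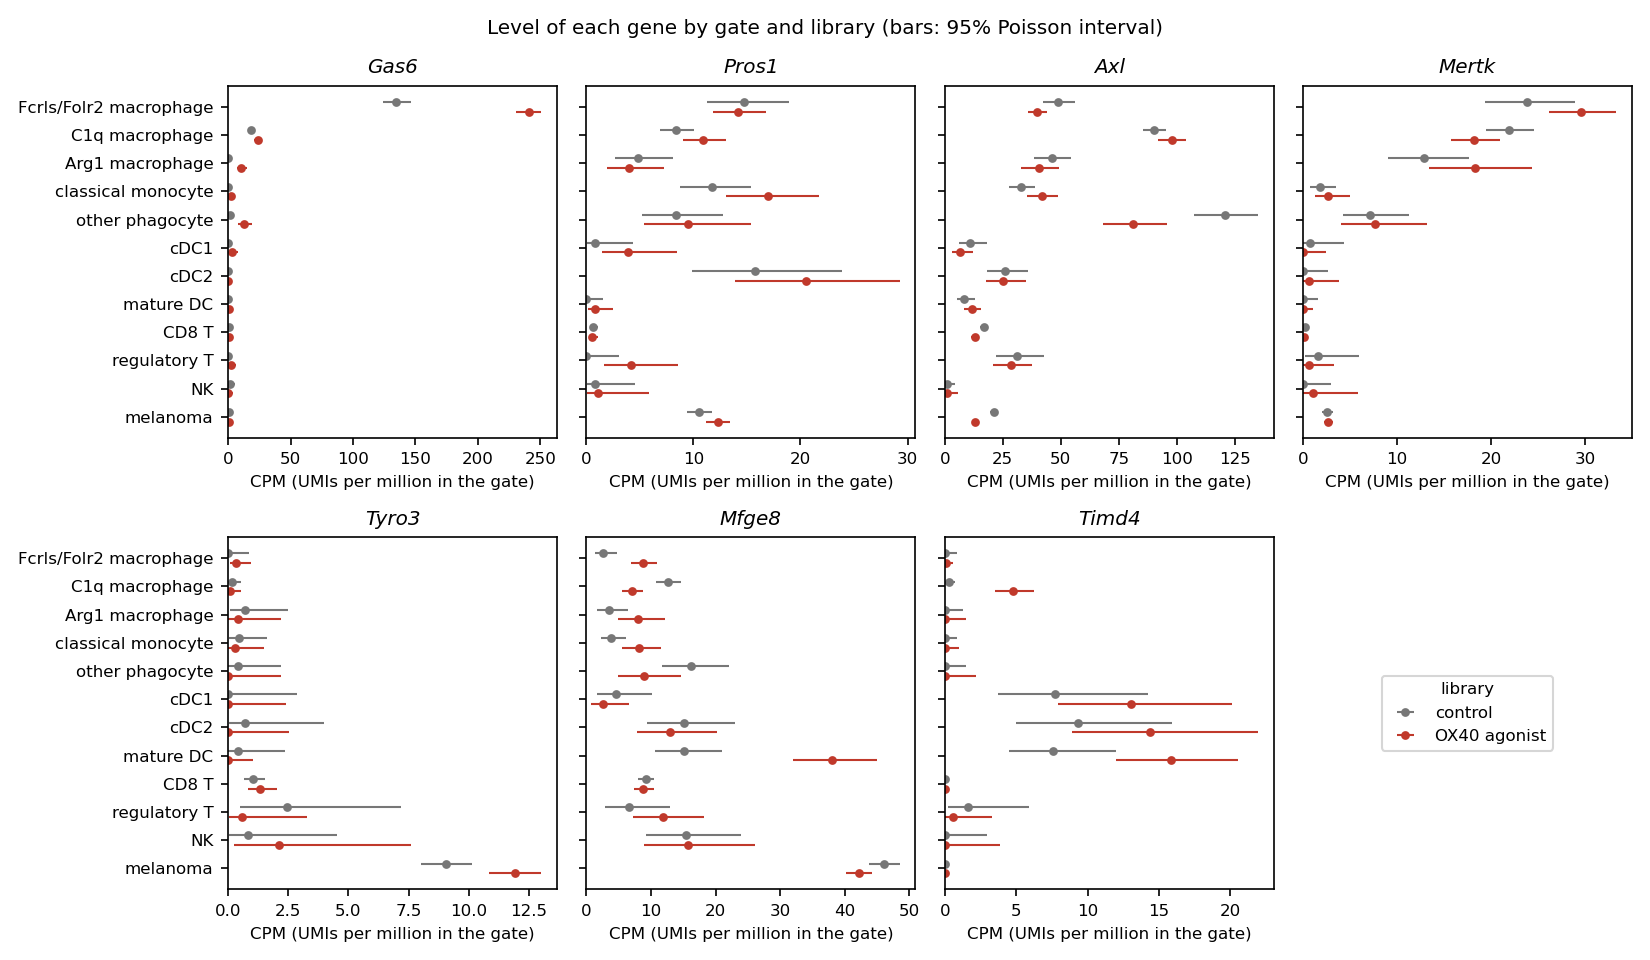
Level of each of the 7 genes (CPM, with 95% Poisson intervals) by gate, for the control and OX40 agonist libraries. Gas6 and Mertk lie in macrophage gates, Pros1 and Axl in macrophages and melanoma cells, Tyro3 in melanoma cells, Mfge8 in melanoma cells with lower levels across gates, and Timd4 in dendritic cells.

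Axl is the TAM receptor for which Gas6 is the known ligand, and it was the receptor found in the most gates. It lies on the minus strand of chromosome 7 at 25757273 to 25788705 (ENSMUSG00000002602), with Hnrnpul1 2516 bases downstream on the same strand. Phagocytes held 2030 control and 1811 treated UMIs, 73.0 CPM (69.9–76.3) and 64.9 CPM (61.9–67.9), a ratio of 0.888 (0.833–0.947). At the control mix of subgates the ratio was 0.993. C1q macrophages stood at 90.3 and 97.7 CPM (1.08, 0.996–1.18), and the Fcrls/Folr2 gate, whose share of phagocytes was larger in the treated library, was lower in both libraries at 48.9 and 39.8 CPM (0.813, 0.684–0.969). Phagocytes outside the named subgates had the highest control level of the gates, 121 CPM, and stood at 80.9 CPM in the treated library (0.671, 0.545–0.824). Arg1 macrophages stood at 46.0 and 40.4 CPM. Classical monocytes stood at 32.9 and 41.8 CPM (1.27, 1.01–1.60), but after thinning the log2 ratio turned from 0.27 to -0.35.

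Among dendritic cells Axl was highest in type 2 cells, at 25.8 and 25.3 CPM, and stood at 8.43 and 11.7 CPM in mature cells. In the whole class 70 and 89 UMIs gave 13.5 and 13.1 CPM. Of the 3 genes measured in dendritic cells, Axl, Mfge8 and Timd4, none was 1.5-fold higher or lower on the scale with 10 CPM added. Over the 7016 genes measured there the shares were 0.271% higher and 0.456% lower.

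Axl was also found in T cells. It was the only one of the 7 genes to be measured there, and it was past 1.5-fold in neither direction, beside 0.365% of 7121 genes higher and 0.154% lower. CD8 T cells held 397 UMIs (17.0 CPM, 15.4–18.7) in control and 194 UMIs (12.9 CPM, 11.1–14.8) in treated cells, a ratio of 0.758 (0.635–0.903). Regulatory T cells, which restrain other T cells, stood at 31.1 and 28.4 CPM (0.912, 0.583–1.43), and after thinning their log2 ratio turned from -0.10 to 0.63. T cells outside the CD8, CD4 and regulatory definitions stood at 11.9 and 23.1 CPM (1.93, 1.08–3.58) on 19 and 35 UMIs. In this gate the 13 phagocyte markers also stood higher in the treated library, at a median of 1.85% and 5.39% of their phagocyte level, and their part in the Axl difference was not tested. Natural killer cells had 1 UMI in each library. The share of CD8 T cells with an Axl UMI after thinning was 2.14% and 1.32%, against 0% and 0.435% of natural killer cells, whose median depth before thinning was 4756 and 3664.5 UMIs against 12403 and 10135 in CD8 T cells. Unthinned, the shares were 17.9% and 11.8% in CD8 T cells and 0.459% and 0.435% in natural killer cells.

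The levels of Axl and of the phagocyte markers in lymphocytes are given side by side, and the part of carried-over RNA in the Axl level was not tested. In CD8 T cells Axl stood at 23.3% of its phagocyte level in control and 19.9% in treated cells. The 13 phagocyte markers stood at a median of 1.12% and 1.38% there, and the highest in control at 1.83% (Ms4a7). The lymphocyte gates cap the sum of these markers and not Axl, so the levels are not on equal terms. In regulatory T cells Axl stood at 42.6% and 43.7%, with markers at a median of 9.01% and 5.15% and at most 16.3% and 18.0% (Fcgr1). In natural killer cells Axl stood at 1.11% and 1.62%. Gas6, at 1.60% and 0.802%, and Mertk, at 1.03% and 0.689%, lay within the range of the markers in CD8 T cells. Splitting CD8 T cells by a UMI of Havcr2 (Tim-3, a receptor of exhausted T cells), a split made after the data were seen, gave 17.9 and 13.8 CPM with it and 12.3 and 9.67 CPM without it. CD8 T cells with a UMI of Tcf7, a factor of less differentiated T cells, stood at 7.79 and 10.7 CPM on 7 and 8 UMIs. Those without it stood at 17.3 and 13 CPM. Within each library the intervals of the levels with and without the marker overlapped in both splits. Depth differed too, at a median of 15245 and 13149 UMIs with Havcr2 against 6595 and 5772 without it. For Tcf7 it was 6512 and 5693 against 13005 and 10613.5. The part of depth in these splits was not tested.

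Melanoma cells showed the lowest Axl ratio of the 4 classes. They held 664 control UMIs (21.2 CPM, 19.6–22.9) and 519 treated UMIs (13 CPM, 11.9–14.1), a ratio of 0.612 (0.545–0.688), and 57.4% and 45.0% of the cells had a UMI. With 10 CPM added the log2 ratio was -0.44, inside the 1.5-fold threshold. None of the 4 genes measured in melanoma cells (Pros1, Axl, Tyro3 and Mfge8) was past it in either direction, where 0.0128% of 7828 genes were higher and 1.12% lower. RNA of other cells in these droplets moved the same way: the summed phagocyte markers stood at 173 and 91.6 CPM and the T cell markers at 48.2 and 24.1 CPM in melanoma cells. Axl stood at 29.0% and 20.01% of its phagocyte level there. The 13 phagocyte markers, which the gate caps, stood at a median of 0.772% in control and 0.503% in treated cells. The part of carried-over RNA in the difference between libraries was not tested.

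**Figure D3:**
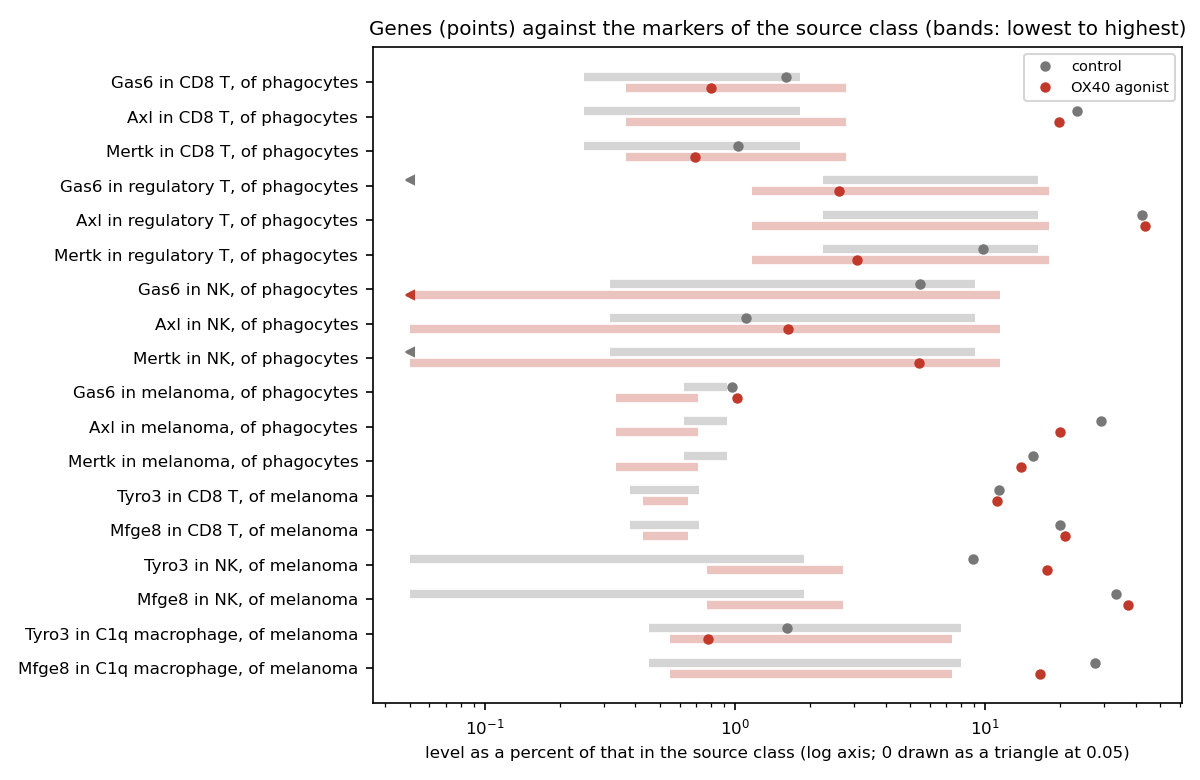
Level of Gas6, Axl, Mertk, Tyro3 and Mfge8 (points) in other gates as a percent of the level in the source class (log axis), beside the range of the markers of that class in the same gate (bands), for the control and OX40 agonist libraries. Axl in CD8 T cells stands at 23.3% and 19.9%, above the bands of the phagocyte markers, whose median is 1.12% and 1.38%. The gates cap the markers in the bands and not the genes drawn as points.

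Mertk, the receptor best known for uptake of dying cells by macrophages, had most of its UMIs in phagocytes, 73.4% in control and 77.2% in the treated library. It lies on the plus strand of chromosome 2 at 128698956 to 128802894 (ENSMUSG00000014361). Gm23172 overlaps it on the same strand and Gm14011 on the other, and the sources used here do not say whether the counting used strand. Phagocytes held 464 and 538 UMIs, 16.7 CPM (15.2–18.3) and 19.3 CPM (17.7–21), a ratio of 1.15 (1.02–1.31), which was 0.988 at the control mix. The Fcrls/Folr2 gate was the highest at 23.8 and 29.6 CPM (1.24, 0.986–1.58). C1q macrophages stood at 21.9 and 18.2 CPM (0.830, 0.690–0.997), where thinning gave a log2 ratio of 0.01 in place of -0.18. Arg1 macrophages stood at 12.8 and 18.2 CPM, and classical monocytes at only 1.80 and 2.70 CPM. The control levels of the Fcrls/Folr2 and C1q gates did not differ beyond their intervals (19.3–28.9 and 19.5–24.5).

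Which gate supplied most Mertk UMIs was different in the 2 libraries. C1q macrophages gave 47.6% of them in control and 28.0% in the treated library, and the Fcrls/Folr2 gate 15.8% and 39.3%. The number of Axl UMIs per Mertk UMI was lowest in the Fcrls/Folr2 gate, 2.06 in control and 1.35 in treated cells, and stood at 4.12 and 5.37 in C1q macrophages and 18.2 and 15.5 in classical monocytes. Capture can differ between genes, so only the differences between gates are read from this ratio. A UMI of each receptor was present in 8.77% and 7.27% of phagocytes, and of neither in 57.0% and 59.99%. Cells with a Gas6 UMI had a Mertk UMI in 41.0% and 36.6% of cases, against 11.8% and 9.74% of phagocytes without one. These are unthinned shares, and deeper cells hold more of both genes. Thinned to 1000 UMIs, they rested on 1 and 2 cells with both.

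Outside phagocytes, Mertk had 1 UMI in the dendritic cells of each library and 8 and 7 UMIs in T cells. Melanoma cells held 81 and 107 UMIs, 2.59 and 2.68 CPM (1.03, 0.768–1.40). That was 15.5% and 13.9% of the phagocyte level, beside a median of 0.772% and 0.503% for the phagocyte markers, which the melanoma gate caps. At under 10 CPM this gene did not count as measured in melanoma cells.

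Tyro3, the TAM receptor known mainly from neural and reproductive tissues, was found chiefly in melanoma cells. It lies on the plus strand of chromosome 2 at 119797733 to 119818104 (ENSMUSG00000027298). Melanoma cells held 283 and 476 UMIs, 9.04 CPM (8.01–10.2) and 11.9 CPM (10.9–13), a ratio of 1.32 (1.13–1.53), and 36.3% and 44.6% of them had a UMI. They supplied 84.2% and 93.0% of all Tyro3 UMIs. Phagocytes held 7 and 6 UMIs in 2167 and 2642 cells, and dendritic cells 2 and 0. CD8 T cells held 24 and 20 UMIs, 1.03 and 1.33 CPM, which was 11.4% and 11.2% of the melanoma level. The melanoma markers there, which the gate caps, stood at no more than 0.718% and 0.650% of theirs. Tyro3 and Axl thus differed in opposite directions in melanoma cells, with a ratio above 1 for Tyro3 and below 1 for Axl. The difference between the 2 ratios has no replicate check.

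**Figure D4:**
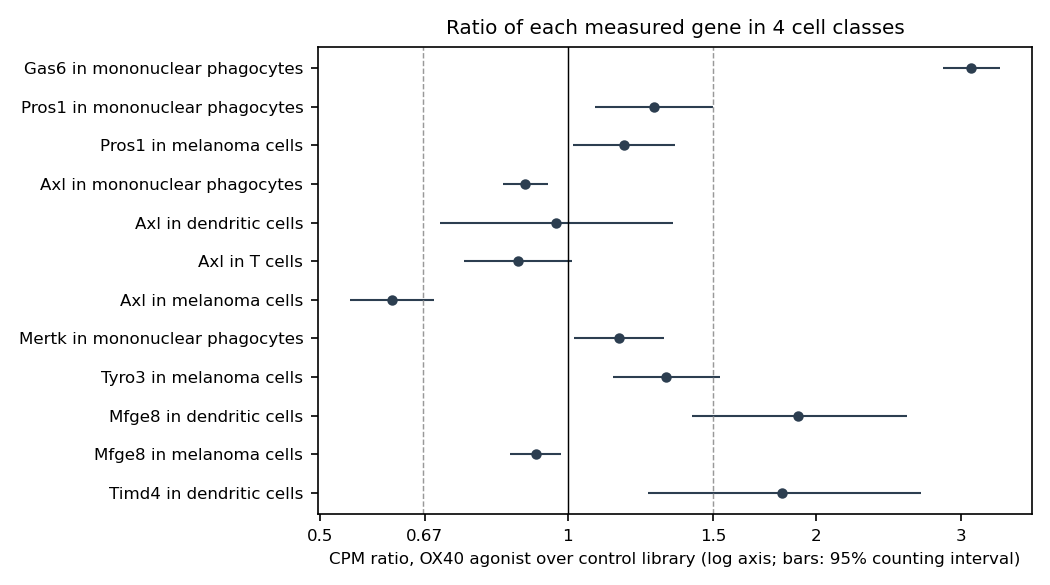
CPM ratio of the treated over the control library for each gene measured in a class, on a log axis with 95% counting intervals, for the 4 classes. Dashed lines mark 1.5-fold on the ratio itself, without 10 CPM added. Gas6 in phagocytes lies at 3.09 and Axl in melanoma cells at 0.612, while Tyro3 in melanoma cells lies at 1.32.

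Mfge8, also called lactadherin, is a secreted protein that couples dying cells to alpha-v integrins. It lies on the minus strand of chromosome 7 at 79133768 to 79149060 (ENSMUSG00000030605). Melanoma cells had the highest level of any class, 46.1 CPM (43.8–48.6) on 1445 control UMIs and 42.2 CPM (40.2–44.2) on 1687 treated UMIs, a ratio of 0.914 (0.852–0.981), and they supplied 68.0% and 73.0% of its UMIs. Lower levels were found in most leukocyte gates: CD8 T cells stood at 9.20 and 8.83 CPM, natural killer cells at 15.4 and 15.8 CPM, and type 2 dendritic cells at 15.1 and 13 CPM. These natural killer levels were 33.3% and 37.5% of the melanoma level, where the melanoma markers stood at no more than 1.89% and 2.71% of theirs. The gate caps those markers and not Mfge8. Natural killer, CD8 T and type 2 dendritic cells did not differ between the libraries beyond their intervals.

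In dendritic cells the Mfge8 sum differed between libraries through 1 cell. The class held 64 and 160 UMIs, 12.3 and 23.5 CPM (1.90, 1.42–2.58), and its log2 ratio with 10 CPM added, 0.58, lay just inside the 1.5-fold threshold. Mature dendritic cells, which express Ccr7 and migrate to lymph nodes, held 36 and 137 UMIs, of which 9 and 79 were in the highest cell. Without the highest cell of each library the log2 ratio was 0.09 for the class and 0.29 for mature dendritic cells. In C1q macrophages the reverse held: 129 of 174 control UMIs were in 1 cell, and the log2 ratio of -0.42 became 0.22 without the highest cells and 0.37 with stricter gates. The Fcrls/Folr2 gate held 11 and 81 UMIs, 2.61 and 8.74 CPM (3.34, 1.77–6.96), with 19 of the treated UMIs in 1 cell.

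Timd4 was a gene of few cells. It lies on the plus strand of chromosome 11 at 46810800 to 46844332 (ENSMUSG00000055546). Dendritic cells held 41 and 98 UMIs, 7.91 CPM (5.68–10.7) and 14.4 CPM (11.7–17.5), a ratio of 1.82 (1.25–2.69), in 2.88% and 3.80% of the cells. No type stood apart: type 1 cells, which cross-present antigen to CD8 T cells, stood at 7.76 and 13 CPM, type 2 cells at 9.32 and 14.4 CPM, and mature cells at 7.59 and 15.8 CPM. The intervals of the 3 overlapped within each library. Single cells weighed heavily, with 12 of 18 control and 19 of 57 treated UMIs of mature dendritic cells in 1 cell each. The mature dendritic cell ratio of 2.09 (1.21–3.77) was 4.15 without these cells and 1.30 with stricter gates. Kept cells outside all gates and mixed droplets held 32.9% and 18.9% of Timd4 UMIs. Melanoma and CD8 T cells held no Timd4 UMI in either library, and natural killer cells held none either.

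In phagocytes Timd4 had 4 control and 52 treated UMIs, and 49 of the 52 lay in 7 cells of the treated C1q gate. Outside those 7 cells 3 UMIs were left, a count taken after the data were seen. The 7 cells held 8 of the 10 Gata6 UMIs of treated phagocytes, in 5 cells, and control phagocytes held none of this transcription factor of large peritoneal macrophages. They also held 93 of 155 UMIs of Cd5l, a secreted protein of resident macrophages, in 6 cells, and 26 of 87 UMIs of the scavenger receptor Marco, in 4 cells. They held no Gas6 UMI. The other phagocytes with Cd5l or Marco UMIs were present in both libraries (26 and 36 cells with Cd5l, 17 and 17 with Marco, the 7 cells included).

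The genes whose levels ran most closely with each of the 7 were sought over the 32 gate-by-library sums with at least 30 cells, among 8666 genes, as Pearson's r of log2(CPM + 10). The points share library and depth, and the values are descriptive. Closest to Gas6 were Fcrls (0.98), Npl (0.94) and Folr2 (0.91), of which Fcrls and Folr2 define the gate where Gas6 was highest. Closest to Mertk were Kcnk13 (0.96), Snx24 (0.95) and Lrp12 (0.95), and to Axl Tlr1 (0.84), Nr1h3 (0.83) and Rnpep (0.83). Pros1 ran with Mgst3 (0.89), Tcp11l1 (0.85) and Plxnb2 (0.83), and Tyro3 with Fndc3c1, Aebp1 and Rtkn (0.94 each). Timd4 ran with Zfp366 (0.90), a factor of dendritic cells, Htr7 (0.86) and Adam23 (0.85). Mfge8 had the weakest neighbours, Tpra1 (0.77), Chchd2 (0.76) and Gpc1 (0.75).

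Other genes of dying-cell clearance were read from a list of 85. In phagocytes 65 of them were measured, of which 4 (6.15%) were at least 1.5-fold higher, beside 0.656% of all measured genes, and 0 were that much lower, beside 0.813%. The list was chosen with earlier results of these data known, so no enrichment is read from these shares. It also holds C1qa, C1qb, C1qc and Cd14, which are markers of the phagocyte gate. The list's median log2 ratio was 0.03 and that of all measured genes 0.01, with 36 list genes above 0 and 29 below. The 4 higher genes had different roles. Stab1, a scavenger receptor that binds phosphatidylserine, stood at 110 and 193 CPM (1.76, 1.68–1.84). Cx3cr1, the receptor for a find-me signal of dying cells, stood at 31.0 and 61.7 CPM (1.99, 1.83–2.16). Abca1, which exports cholesterol, stood at 49.3 and 102 CPM (2.07, 1.94–2.21). Il10, an anti-inflammatory cytokine made after uptake, stood at 26.7 and 46.1 CPM (1.73, 1.58–1.89).

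These 4 genes differed in how far the subgate mix moved with them. At the control mix the ratio was 1.26 for Stab1, 1.36 for Il10, 1.53 for Cx3cr1 and 1.78 for Abca1. Abca1 was higher in all 5 phagocyte subgates, by ratios of 1.51 to 2.04. Cx3cr1 was lower only in Arg1 macrophages, at 21.8 and 11.1 CPM. It was higher in the Fcrls/Folr2 gate, at 42.5 and 114 CPM. Its ratio was 1.26 (1.10–1.44) in C1q macrophages and 1.31 (1.04–1.64) in classical monocytes. In phagocytes outside the named subgates it was 1.83 (1.18–2.87). Stab1 stood at 297 and 399 CPM in the Fcrls/Folr2 gate, the gate with the most Gas6.

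No other measured gene of the list was past 1.5-fold in phagocytes with 10 CPM added. Among bridging molecules and opsonins Thbs1, a secreted protein that links dying cells to Cd36 and integrins, stood at 389 and 504 CPM (1.30, and 1.501 at the control mix). C3 stood at a ratio of 0.817, but at 0.966 at the control mix. It was lower in the Fcrls/Folr2 gate, at 55.4 and 20.5 CPM (0.370), and higher in classical monocytes, at 165 and 198 CPM. In the C1q gate, Arg1 macrophages and phagocytes outside the named subgates the interval of its ratio crossed 1. C4b stood at 0.781, and at 0.760 at the control mix. Itgav, the integrin chain that Mfge8 binds, had a ratio of 1.42. Lipa, the lysosomal acid lipase, had 1.39, the engulfment adaptor Elmo1 1.27, and Vkorc1, part of the vitamin K cycle that Gas6 and Pros1 need for gamma-carboxylation, 1.25. Adam10, a protease that can shed TAM receptors, had 1.16. On the lower side Socs1, a feedback inhibitor of cytokine signalling that TAM receptors are known to induce, stood at 48.7 and 31.6 CPM (0.649, 0.596–0.707), 0.721 at the control mix, and 0.430 in the Fcrls/Folr2 gate. On the log2 scale with 10 CPM added Socs1 stood at -0.50. Socs3 had a ratio of 0.820, Cd300lf, a lipid-binding receptor, 0.764, Nr1h2, a liver X receptor, 0.784, and the mitochondrial carrier Ucp2 0.795. Smaller ratios were found for Sirpa, the receptor of the do-not-eat-me signal Cd47 (1.14), the engulfment factor Vav3 (1.19) and the opsonin Anxa1 (1.09). At the control mix Sirpa stood at 1.07, Vav3 at 1.14 and Anxa1 at 1.08. Ratios below 1 were found for Scarb1 (0.836), Cd24a (0.821), Gpr132 (0.863) and Rac2 (0.875). At the control mix Scarb1 stood at 0.860 and Rac2 at 0.897, while Cd24a at 0.967 and Gpr132 at 0.988 lay near 1. In the TAM-induced feedback group, 1 of 4 measured genes was above 0 and 3 were below.

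**Figure D5:**
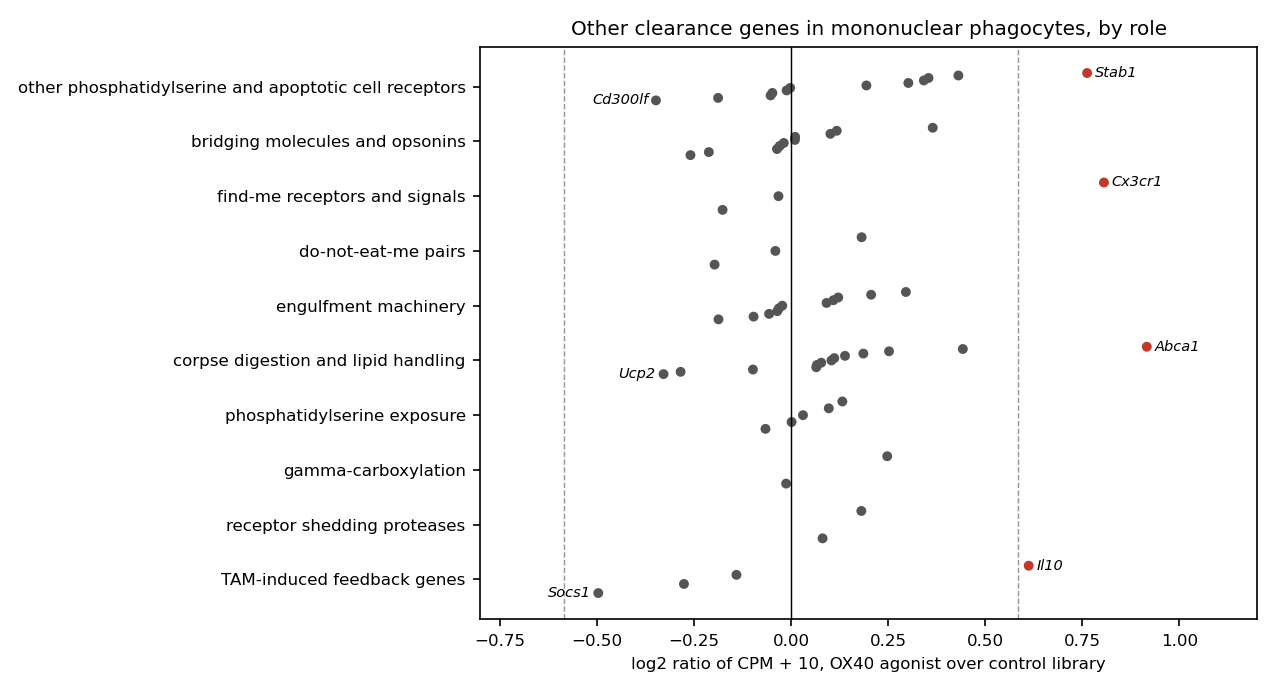
Log2 ratio of CPM + 10, treated over control library, of each measured gene of the 85-gene list in phagocytes, by role group. Stab1, Cx3cr1, Abca1 and Il10 lie beyond the 1.5-fold line on the higher side, and no gene lies beyond it on the lower side.

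In the other classes few genes of the list passed 1.5-fold. None of 52 measured did in dendritic cells (median -0.07, all genes -0.05). In T cells 1 of 46 was higher (2.17%, beside 0.365% of all measured genes), the lipid scavenger receptor Cd36 at 3.59 and 10.5 CPM. Cd36 reached the 10 CPM filter only in the treated library, where it was higher, so the filter favours this call. In melanoma cells 2 of 46 were lower (4.35%, beside 1.12% of all measured genes), the complement genes C1qb at 26.1 and 11.7 CPM and C4b at 13.6 and 5.50 CPM. C4b likewise reached the filter only in the control library, where it was higher. C1qb is also a phagocyte marker, and the sum of these markers in melanoma cells was lower in the treated library as given beside Axl.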

How the data were processed

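Single-cell RNA was measured in 1 control and 1 OX40 agonist library. The deposited matrices hold UMI counts per gene and barcode, made by the authors with Cell Ranger 3.1.0, per the file headers, on mm10, per the submitters' processing notes. The counts were not normalized. Kept barcodes held 500 UMIs or more, 200 genes or more and no more than 10% mitochondrial UMIs, and the highest simulated-doublet scores were removed at 0.8% per 1000 barcodes (323 and 450). Cells were gated by summed markers per 10000 UMIs (phagocytes at least 60, T cells 15, melanoma 40), with limits on markers of other lineages. Subgates were set in the same way. The members and lists were chosen with earlier results of these data known, and the gate thresholds after marker histograms were seen. Clusters from a Leiden graph (2000 variable genes, 30 components, 15 neighbours, resolution 1.0) served as an alternative; 93.5% of gated phagocytes, 97.3% of dendritic cells, 95.9% of T cells and 88.9% of melanoma cells fell in the matching cluster class.

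Levels are CPM of summed counts with exact Poisson intervals, ratios have exact conditional intervals, and shares are given thinned to 1000 UMIs and unthinned. A gene was measured at 10 CPM and 30 UMIs or more in either library, and calls used a 1.5-fold difference after adding 10 CPM. The self-test on simulated counts was passed. It drew independent Poisson counts for the class sums, with some genes changed by a known fold. UMIs gathered in single cells were not part of it, so it does not bear on them. Of the pathway list the text names, per role group, up to 2 genes with the highest and 2 with the lowest log2 ratio among measured genes with separate intervals, and of the pattern comparison the 3 genes with the highest r per member. The alternatives tried were doublet removal, UMI and mitochondrial limits, stricter gates, clusters, thinning, the mean over cells, median ratio scaling, added CPM, low-count filter, subgate mix and leaving out the highest cell. Reads and proteins were not used here. The work used Python 3.11.15, numpy 2.4.6, scipy 1.17.1, pandas 2.3.3, scikit-learn 1.9.0, leidenalg 0.10.2 and igraph 0.11.9.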

Additional observations from a re-analysis of the deposited data

Results flagged for a closer look

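Axl differed in opposite directions between cell gates. Its ratio of treated to control CPM was highest in T cells outside the CD8, CD4 and regulatory definitions, 1.93 (1.08–3.58) on 19 and 35 UMIs, and lowest in melanoma cells, 0.612 (0.545–0.688). Phagocyte markers moved in the same directions in both gates, from a median of 1.85% to 5.39% of their phagocyte level in those T cells and from 0.772% to 0.503% in melanoma cells, and their part in the Axl ratios was not tested. The difference between these gates was not tested, since each group is 1 library.

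Mfge8 also had ratios on both sides of 1, with 3.34 (1.77–6.96) in the Fcrls/Folr2 gate and 0.552 (0.416–0.728) in C1q macrophages. In the C1q gate 129 of the 174 control UMIs lay in 1 cell, and without the highest cells the log2 ratio there turned from -0.42 to 0.22. This difference was not tested either.

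Droplets with markers of more than one lineage entered no gate, and they held Gas6 at 49.1 CPM in the control and 90.4 CPM in the treated library, a ratio of 1.84 (1.49–2.27). The summed markers of the Fcrls/Folr2 gate stood at 114 and 303 CPM in these droplets. They supplied 18.2% and 6.36% of all Gas6 UMIs.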

How the results depend on the processing

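No paired analysis was possible because each group is 1 library and no test was run. Over the 12 values of the 7 genes by class, 126 of 144 alternatives moved the log2 ratio by less than its counting interval, 18 moved it further and 0 reversed a called value. For 13 values in single gates these numbers were 125, 18 and 0 of 143. Only a value past 1.5-fold at the main setting could count as reversed. Among the classes that was Gas6 in phagocytes alone. Among the single gates it was Gas6 in the Fcrls/Folr2 gate and Mfge8 in mature dendritic cells. Gas6 in phagocytes (log2 ratio 1.35) was 1.25 with classes from clusters, 1.59 with 1 CPM added and 0.83 with 50 CPM added. Thinning to 1000 UMIs per cell gave -0.16 for Pros1 in melanoma cells (0.12 without thinning), -0.53 for Axl in dendritic cells (-0.03), 0.046 for Axl in T cells (-0.12), -0.62 for Axl in melanoma cells (-0.44), 0.34 for Tyro3 in melanoma cells (0.20) and 0.14 for Mfge8 in melanoma cells (-0.11). The direction thus turned with thinning for Pros1 and Mfge8 in melanoma cells and for Axl in T cells. Axl in dendritic cells turned to 0.16 as a mean over cells and to 0.024 without doublet removal. With 1 CPM added, Pros1 in phagocytes was 0.32, Axl in melanoma cells -0.67 and Tyro3 in melanoma cells 0.36. With 50 CPM added, the last pair were -0.18 and 0.068, and Mfge8 in dendritic cells was 0.24. Mfge8 in dendritic cells was 0.087 without the highest cell of each library. Axl was -0.34 in dendritic cells classed by clusters, and -0.037 in phagocytes as a mean over cells. Counts of all genes past 1.5-fold rose with 1 CPM added: 90 higher and 99 lower in phagocytes (46 and 57 with 10 CPM), 58 and 182 in dendritic cells (19 and 32), 83 and 23 in T cells (26 and 11), and 8 and 144 in melanoma cells (1 and 88). With no low-count filter 2 genes were higher in melanoma cells. The causes of these moves were not tested.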
